A study of Homo sapiens with 3 samples.

Results

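The genes described here are the human ZNF genes numbered below 300, which were measured in A549 cells, a lung adenocarcinoma line, on 3 one-colour Agilent expression arrays. Their probes were those whose RefSeq mRNA accession led to a symbol of ZNF, a number below 300 and at most 1 further letter. This gave 145 genes with 199 probes, out of 18204 genes with an mRNA accession on the array. One array was hybridized per condition, so no value below has a replicate and no test between conditions was possible. The control cells received 0.1% DMSO, the cordycepin-treated cells 60 μg/mL cordycepin and the third cells 100 μg/mL cordyceps, each for 48 h. Only GEO's labels name the cordyceps condition, and they say nothing more about the preparation. Per the labels, the medium of all 3 groups was DMEM with serum and antibiotics and also held zinc sulfate at 16.7 μM, nicotinamide at 10 mM and troglitazone at 10 μM, so every comparison is between cells that carried these additions. Cordycepin is a nucleoside, an adenosine that lacks the 3′ hydroxyl group, and was first isolated from Cordyceps fungi.

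Most ZNF genes encode C2H2 zinc finger proteins, in which short finger modules that each hold a zinc ion lie in a row and read DNA bases. Many of them also carry a KRAB domain, which recruits the co-repressor TRIM28 and with it enzymes that write repressive chromatin marks. Such genes arose by repeated tandem duplication and lie in clusters, above all on chromosome 19, and many of their products silence transposable elements. The name is only a name, and some genes that bear it are no classical members: ZNF185, for example, encodes a LIM-domain protein of the actin cytoskeleton.

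The RefSeq promoter table (GRCh38.p14) held 125 of the 145 genes. The 250 bases before the start of 3 genes are shown, because ZNF207 was at least 2-fold lower with cordycepin and lower in all 3 of its probes, while ZNF254 and ZNF92 lie in the gene runs on chromosomes 19 and 7 that had the lowest ratios with cordyceps. Capitals mark a GC box (GGGCGG) or a CCAAT box (CCAAT), searched on both strands.
ZNF207, chr17:32349907-32350156, + strand: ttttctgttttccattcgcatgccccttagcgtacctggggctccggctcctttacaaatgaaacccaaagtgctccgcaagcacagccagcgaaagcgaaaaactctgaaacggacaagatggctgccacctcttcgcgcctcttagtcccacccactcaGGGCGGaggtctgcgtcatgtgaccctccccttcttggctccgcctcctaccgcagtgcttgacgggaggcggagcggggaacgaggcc
ZNF254, chr19:24086937-24087186, + strand: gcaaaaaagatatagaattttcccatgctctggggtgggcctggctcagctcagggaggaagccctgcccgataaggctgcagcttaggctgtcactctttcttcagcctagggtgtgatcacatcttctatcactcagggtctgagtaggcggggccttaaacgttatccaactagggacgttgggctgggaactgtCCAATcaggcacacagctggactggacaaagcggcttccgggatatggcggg
ZNF92, chr7:65373605-65373854, + strand: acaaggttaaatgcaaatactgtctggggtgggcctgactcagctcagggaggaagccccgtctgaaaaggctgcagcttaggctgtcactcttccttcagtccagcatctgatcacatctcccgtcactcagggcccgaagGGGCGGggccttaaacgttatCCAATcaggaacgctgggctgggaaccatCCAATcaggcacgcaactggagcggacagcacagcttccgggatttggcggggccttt
ZNF207 had a GC box and no CCAAT box, ZNF254 had a CCAAT box, and ZNF92 had both kinds. In a global alignment the ZNF254 and ZNF92 stretches were 80.8% identical over the 250 bases, although the genes lie on different chromosomes.

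A second set of short stretches is shown because their letters were more frequent before these genes than before other genes. The letters ACTACA, any 2 bases and then TCCCA are the core of a site known to be bound by ZNF143, itself one of the 145 genes and an activator at many promoters. Each line holds 29 bases, with the match in capitals.
ZNF112, chr19:44356779-44356807, + strand: gctcccaaACTACATTTCCCAgaattcct
ZNF189, chr9:101398713-101398741, - strand: gctactggACTACATTTCCCAgcgtgcaa
ZNF283, chr19:43827251-43827279, + strand: cgctgtggACTACATTTCCCAgaagtctc
ZNF277, chr7:112206486-112206514, - strand: ggccaagaACTACAATTCCCAgcgtgctg
ZNF26, chr12:132986287-132986315, - strand: ccggaaaaACTACATCTCCCAcaatcctc
On either strand, 19 of the 125 promoters (15.2%) held these letters, against 2.03% of 15843 promoters of protein-coding genes and 1.40% of all 27305 promoters in the table. Many of the 19 genes are chromosome 19 neighbours: ZNF45, ZNF112, ZNF180, ZNF224, ZNF225, ZNF230, ZNF234, ZNF235, ZNF283 and ZNF284. On chromosome 12, ZNF26, ZNF140 and ZNF268 are neighbours too. Neighbours were counted as separate genes, although ZNF224 and ZNF225 shared a stretch of 29 identical bases. The CCAAT box was found in 50.4% of the 125 promoters and in 34.5% of coding promoters. The GC box stood in 56.0% of both groups. The TATA box, TATAAA, was found in 1.60% against 9.23%. A cyclic AMP response element, TGACGTCA, was found in 4% against 2.32%. These are matches of letters and not measured binding.

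The genes were detected somewhat more often than the average gene. A gene was called detected when at least 50% of the spots of its brightest probe were well above background. By this rule 125 of the 145 genes (86.2%) were detected in control cells, 118 (81.4%) in cordycepin-treated cells and 117 (80.7%) in cordyceps-treated cells, while the shares over all genes were 74.0%, 73.1% and 69.1%. All 3 arrays detected 114 genes, some arrays detected 11, and 20 genes were not well above background on any array. The undetected genes included ZNF91 and ZNF93, which are known to silence SVA and LINE-1 retrotransposons. The 11 genes detected on some arrays were ZNF10, ZNF20, ZNF44, ZNF70, ZNF76, ZNF99, ZNF100, ZNF107, ZNF117, ZNF136 and ZNF215, and all 11 were detected in control cells, where their signals ran from 25.3 (ZNF215) to 64.6 (ZNF117). The 20 genes seen on no array were left out of every ratio below.

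The cells and arrays set limits on these values. All 7 A549 epithelial markers (KRT8, KRT18, KRT19, EPCAM, CDH1, AKR1C1 and AKR1B10) were detected on each array. Of the markers of other cell types, PTPRC and CD14 of 4 leukocyte genes and COL1A1 of 4 fibroblast genes were detected on all arrays, and VWF and CDH5 of 4 endothelial genes in control and cordycepin-treated cells. Of the 4 alveolar markers, NAPSA was detected on all arrays, SFTPC and NKX2-1 in control and cordycepin-treated cells, and SFTPB on none. The lowest detected signal was 18.6, 21.8 and 34.5 on the control, cordycepin and cordyceps arrays, so the bar for detection was highest on the last of them. On the cordyceps array 1330 of 11808 spots (11.3%) in 1 corner had an outlying local background, and no spot there did on the other arrays. The brightest probe of 34 of the 145 genes lies in that corner, and the main counts and medians are also given without them.

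With cordycepin, by the brightest probe of each gene, 4 of the 145 genes were lower than in control cells by 2-fold or more. None was higher by that much. The lower genes were ZNF207, ZNF174, ZNF75D and ZNF117. Weaker probes of ZNF25 (71.3 to 123.8, log2 ratio 1.01) and ZNF81 (at least 2.14-fold higher) did pass 2-fold upward. The brightest probes of ZNF25 and ZNF81 gave 0.09 and 0.47, and that of ZNF25 lies in the corner. In RNA from whole cultures, fewer cells that express a gene and less of its RNA per cell cannot be told apart. Among all genes that could be compared, 5.33% were higher by 2-fold or more and 3.51% lower, and the 4 lower genes were 3.20% of the 125 that could be compared. The share of lower genes was thus near that of the whole array, while the higher direction was empty. Some of the 5.33% were genes detected with cordycepin and not in control cells, and none of the 145 was of that kind. With detection required on both arrays, 480 of 12931 genes were higher and 395 lower. Of the 118 ZNF genes left, none was higher, and ZNF207, ZNF174 and ZNF75D were lower. Outside the corner, with bounds counted again, the counts were 0 and 4 of 95, beside 5.44% and 3.49% of all genes there. At 1.5-fold, 5 genes were higher (4%, all genes 12.1%) and 19 were lower (15.2%, all genes 12%). Outside the corner these counts were 4 (4.21%, all genes 12.2%) and 16 (16.8%, all genes 11.8%).

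ZNF207, also called BuGZ, binds microtubules and the checkpoint protein BUB3 and supports spindle assembly. Its brightest probe read 2796.3 in control cells, 1129.2 in cordycepin-treated cells and 2482.2 in cordyceps-treated cells, as background-subtracted signals before scaling. After each array was scaled by its 75th percentile, ZNF207 was 2.13-fold lower with cordycepin (log2 ratio −1.09) and 1.13-fold lower with cordyceps (−0.17). Its other probes pointed the same way with cordycepin, at −0.66 and −0.69, which is short of 2-fold.

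ZNF174 encodes a SCAN-domain zinc finger protein, a type that forms dimers through this domain. Its brightest probe read 449.0 in control cells, 155.3 with cordycepin and 522.5 with cordyceps, a 2.49-fold lower level with cordycepin (log2 ratio −1.32) and a ratio of 0.22 with cordyceps. The second probe gave −0.38 with cordycepin and −0.74 with cordyceps. The brightest probe of ZNF174 is listed for another transcript accession than the second, and with cordyceps the 2 probes lay on opposite sides of 0.

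ZNF75D had 1 probe, which read 182.5 in control cells, 74.0 with cordycepin and 171.3 with cordyceps. This was 2.13-fold lower with cordycepin (log2 ratio −1.09) and 1.07-fold lower with cordyceps. ZNF117 read 64.6 in control cells and was not well above background on either other array, where its signals were 18.0 and 31.5. It was therefore at least 2.55-fold lower with cordycepin and at least 1.88-fold lower with cordyceps. The low cordycepin value thus rested on agreeing probes for ZNF207, on probes of unequal size for ZNF174 and on a single probe for ZNF75D and ZNF117. With normexp background correction only ZNF207 stayed past 2-fold, and the bound of ZNF117 shrank to a log2 ratio of −0.39. With the median over the probes of a gene, ZNF207 (−0.69) and ZNF174 (−0.85) no longer passed.

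**Figure D1:**
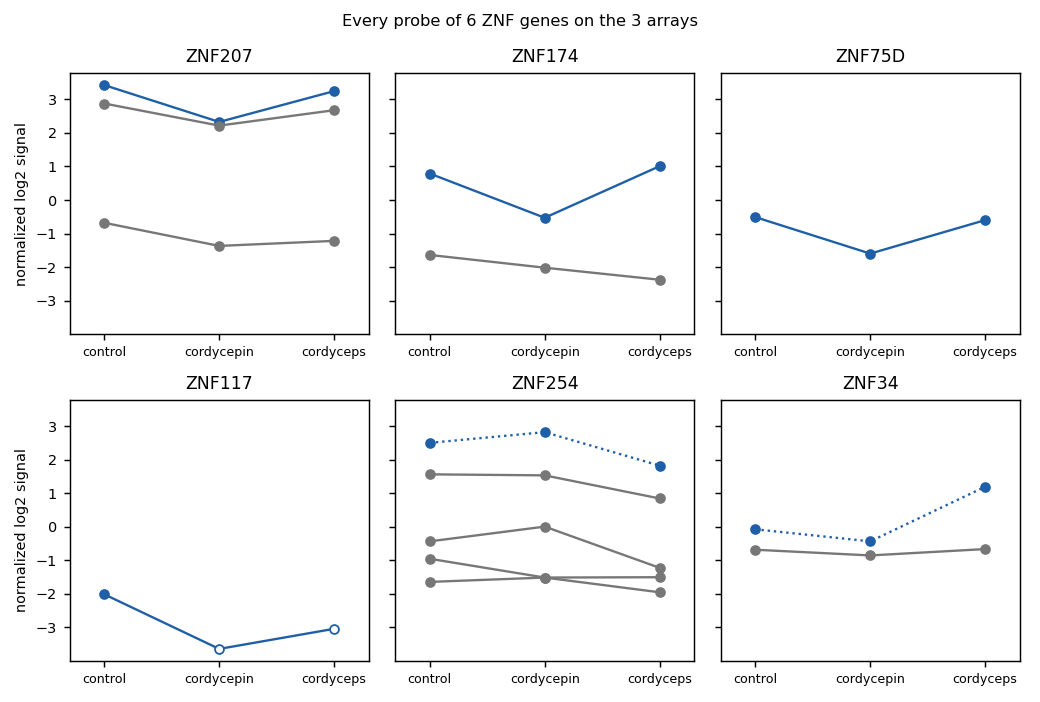
Scaled log2 signal of every probe of 6 genes on the control, cordycepin and cordyceps arrays, with lines joining 1 probe, blue for the brightest probe and grey for the others. Open points were not well above background and dotted lines are probes in the corner. All 3 ZNF207 probes are lowest with cordycepin, the 5 ZNF254 probes are all lower with cordyceps than in control cells, and only the corner probe of ZNF34 is high with cordyceps.

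The next genes below the threshold were ZNF181 (log2 ratio −0.95, in the corner), ZNF112 (−0.79), ZNF10 (at least 1.70-fold lower, a log2 bound of −0.77), ZNF283 (−0.75) and ZNF189 (−0.73). On the other side, ZNF185 came nearest to 2-fold, at 190.0 in control cells, 326.2 with cordycepin and 198.8 with cordyceps. It was 1.99-fold higher with cordycepin (0.99) and 1.05-fold higher with cordyceps. ZNF256 (0.95, in the corner), ZNF184 (0.78), ZNF2 (0.72) and ZNF177 (0.63) were the other genes at least 1.5-fold higher, and the second probe of ZNF2 gave −0.47. These genes stand beside the threshold and, except ZNF185 and ZNF10, were chosen after their values were seen. With the 75th percentile taken over the probes detected on all arrays, ZNF185 (1.04) and ZNF256 (1.00) passed 2-fold, which turns the split into 2 higher and 4 lower.

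Taken as a group, the genes moved little with cordycepin. The median log2 ratio over the 118 genes measured on both arrays was −0.08, and that of all genes was −0.06. The middle 50% of the group spanned 0.54 and that of all genes 0.56. The ratios ran from −1.32 to 0.99, with 71 genes below 0 and 47 above. Outside the corner the median was −0.05. The genes measured by more than 1 probe give the only view of error on these arrays, and it is an error between probes and not between cultures: the SD of the log2 ratio of a single probe, taken from the median absolute difference between the 2 brightest probes, was 0.20 over 27 of the genes and 0.26 over 3305 genes of the whole array. In 17 of these 27 genes all measured probes had the same sign, and in none did probes oppose each other at 1.5-fold or more on both sides.

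**Figure D2:**
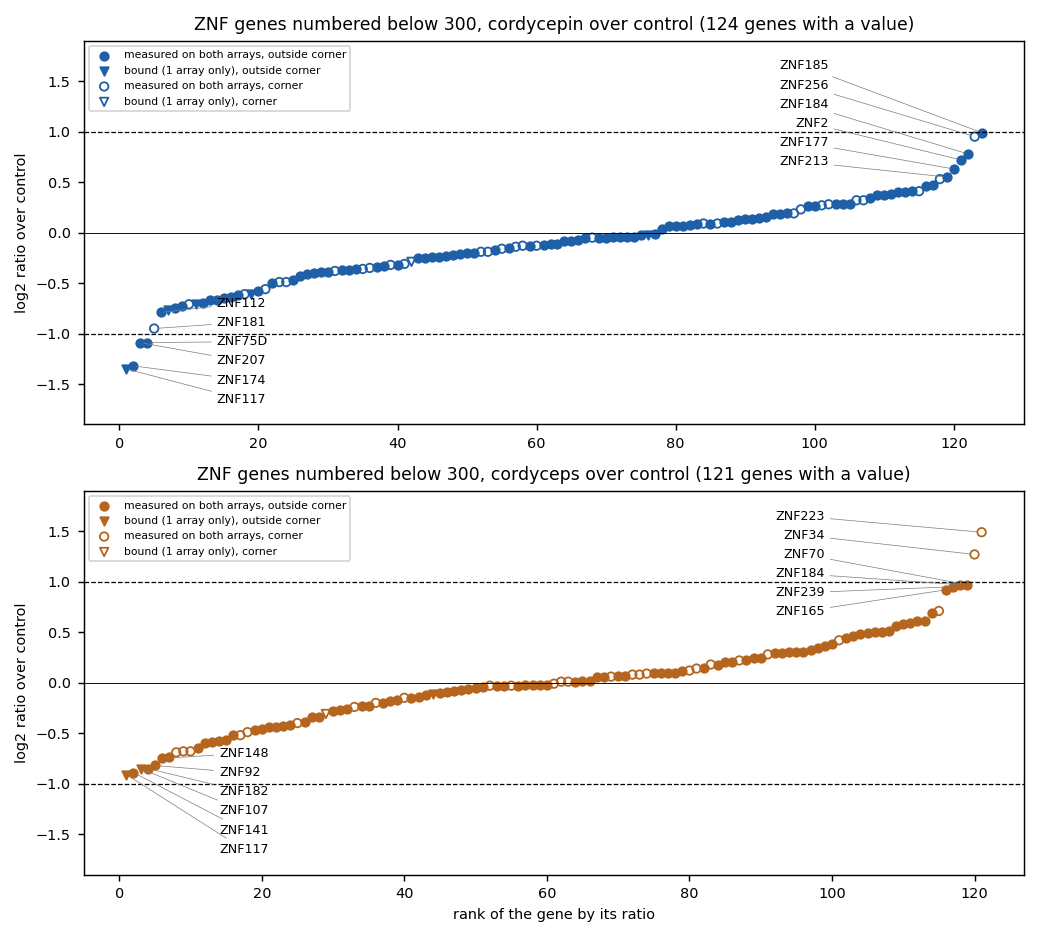
Log2 ratio over control of each gene with a value, ranked, for cordycepin (upper panel, 124 genes) and cordyceps (lower panel, 121 genes); dashed lines mark 2-fold, triangles are bounds and open symbols are probes in the corner. With cordycepin 4 genes lie below the lower line and none above the upper line, and with cordyceps the 2 genes above the upper line are both in the corner.

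With cordyceps, 2 of the 125 genes that could be compared (1.60%) were higher than in control cells by 2-fold or more, and none was lower by that much. Over all genes 3.80% passed 2-fold upward and 3.10% downward. The 2 genes were ZNF223 and ZNF34, KRAB zinc finger genes on chromosomes 19 and 8, and the brightest probe of each lies in the corner of the outlying background. Outside the corner no gene of 95 passed 2-fold in either direction by its brightest probe, beside 2.55% and 3.08% of all genes there. A weaker probe of ZNF124, also outside the corner, was at least 2.15-fold lower (81.0 in control cells, not well above background with cordyceps). The brightest ZNF124 probe gave a log2 ratio of −0.14. In the corner the 2 higher genes were 6.67% of 30, and 9.25% of all genes there were higher.

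ZNF223 read 132.7 in control cells, 92.4 with cordycepin and 371.5 with cordyceps, which was 2.80-fold higher with cordyceps (log2 ratio 1.49). It has no other probe. ZNF34 read 248.0, 166.2 and 597.3 on the same arrays, 2.41-fold higher with cordyceps (1.27). The second ZNF34 probe lies outside the corner and read 162.5, 124.6 and 164.6, a log2 ratio of 0.02. The higher ZNF34 value was thus seen by the corner probe alone, and whether the corner's background set it was not tested.

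The genes closest to 2-fold outside the corner were ZNF184 and ZNF70, at 1.96-fold and 1.95-fold higher, ZNF239 at 1.93-fold and ZNF165 at 1.89-fold. ZNF165, which is known as a cancer-testis antigen, read 411.9 in control cells, 457.8 with cordycepin and 778.9 with cordyceps. The others were dimmer, with control signals of 76.0 for ZNF184, 38.7 for ZNF70 and 42.2 for ZNF239. With the arrays scaled again without the corner, all 4 of these genes were at least 2-fold higher, at log2 ratios from 1.03 (ZNF165) to 1.08 (ZNF184 and ZNF70). At the lower end stood ZNF117 (at least 1.88-fold lower), ZNF141 (log2 ratio −0.89), ZNF107 (at least 1.80-fold lower), ZNF182 (−0.85) and ZNF92 (−0.82). At 1.5-fold, 11 genes were higher (8.80%, all genes 7.96%) and 13 lower (10.4%, all genes 12.2%). Outside the corner 8 of 95 were higher (8.42%, all genes 6.77%) and 10 lower (10.5%, all genes 12.1%). The median log2 ratio was 0.01 over 117 genes, with all genes at −0.10, and 57 genes were below 0 and 60 above. Outside the corner the median was 0.00. Between-probe SDs were 0.29 over 23 of the genes and 0.20 over all genes.

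**Figure D3:**
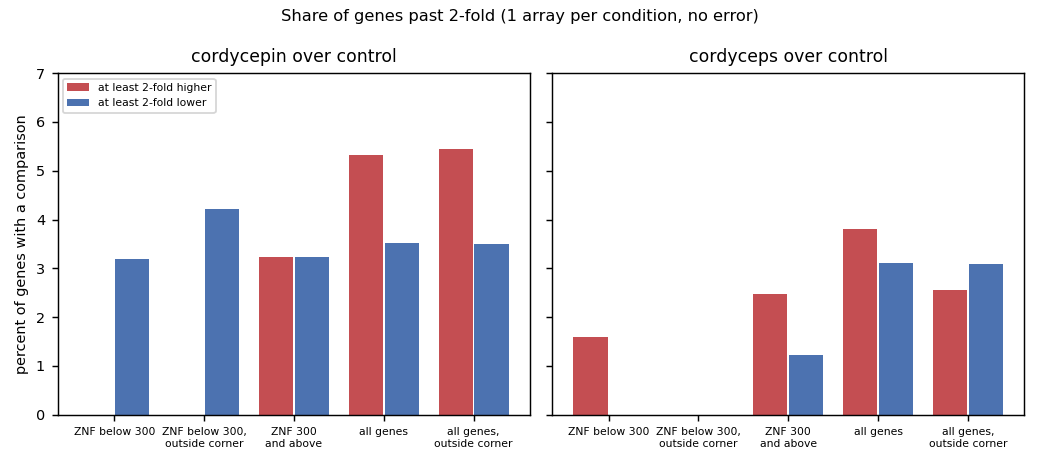
Percent of the genes with a comparison that were at least 2-fold higher (red) or lower (blue) than control, for the ZNF genes numbered below 300, those outside the corner, the ZNF genes numbered 300 and above, and all genes; 1 array per condition, so no error can be drawn. The genes described have no red bar with cordycepin (all genes 5.33%) and no bar with cordyceps outside the corner.

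A list of 19 of the genes with a described role held 17 that could be compared. With cordycepin 1 of the 17 was at least 2-fold lower (5.88%, all genes 3.51%), ZNF207, and none was at least 2-fold higher (all genes 5.33%). With cordyceps none passed 2-fold. ZNF143, the promoter-binding activator named above, read 552.4 in control cells, 500.5 with cordycepin and 421.9 with cordyceps, with log2 ratios of 0.07 and −0.39. ZNF76, its closest relative, read 25.8 in control cells, 16.2 with cordycepin and 42.2 with cordyceps. Only its control signal was well above background, so its higher cordyceps signal gave no measured ratio. The oncogene ZNF217, which is amplified in breast cancer, read 2122.7, 2437.1 and 1611.3, with ratios of 0.41 and −0.40. Its second probe, outside the corner, gave 0.49 and −0.24. ZNF217 was thus on the same side of control with both probes in each condition, short of 1.5-fold.

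ZNF10, ZNF202 and ZNF263 were the other genes on this list at least 1.5-fold lower with cordycepin. With ZNF207 they made 4 of 17 (23.5%, all genes 12%), while 1 was at least 1.5-fold higher (5.88%, all genes 12.1%). ZNF10, whose KRAB domain is widely used to silence genes in CRISPR interference, read 43.1 in control cells, 17.6 with cordycepin (not well above background) and 64.4 with cordyceps. It was at least 1.70-fold lower with cordycepin and 1.49-fold higher with cordyceps. ZNF202, a repressor of lipid metabolism genes, read 73.0, 38.6 and 95.2, with log2 ratios of −0.70 and 0.38. ZNF263 was at −0.64 with cordycepin and 0.10 with cordyceps. In these 3 genes the cordycepin signal was the lowest of the 3 arrays and the cordyceps signal the highest. Under other ways of processing, the cordycepin log2 ratios of ZNF10, ZNF202 and ZNF263 shrank to as little as −0.23, −0.26 and −0.25, short of 1.5-fold.

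The opposite order was seen in ZNF224 and ZNF267. ZNF224, a repressor of the aldolase A gene, had log2 ratios of 0.23 with cordycepin and −0.52 with cordyceps, and ZNF267 of 0.32 and −0.68. The brightest probes of both lie in the corner. ZNF148, also called ZBP-89, which binds GC-rich promoters, was at −0.36 and −0.75 by its brightest probe and at −0.32 and 0.16 by its second, so that its cordyceps value differed between probes. ZNF274, which recruits TRIM28 and SETDB1 to zinc finger genes, was at 0.12 and 0.10. ZNF24, ZNF277, ZNF281 and ZNF292 lay between −0.33 and −0.13 with cordycepin and between −0.05 and 0.24 with cordyceps.

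The genes fall into 13 runs along the chromosomes, where a run is at least 3 of the genes with at most 5 other coding genes between neighbours in GRCh38.p14 gene order. The runs hold 75 of the 145 genes, from 3 to 19 genes a run. This grouping was made after the values were seen. In 3 runs the cordyceps ratios were low in nearly all measured genes, and these runs are described for that reason. They reach from ZNF107 to ZNF92 on chromosome 7, from ZNF100 to ZNF254 on chromosome 19 and from ZNF101 to ZNF85 on chromosome 19. Their median log2 ratios with cordyceps were −0.60 over 3 measured genes, −0.58 over 2 and −0.54 over 4. With cordycepin the medians were 0.22, 0.30 and 0.18, over 4 measured genes each. In the run from ZNF100 to ZNF254 most measured genes lie in the corner, and the 1 outside it, ZNF257, was at −0.47 with cordyceps and −0.04 with cordycepin.

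Together the 3 runs hold 18 genes, of which 9 were measured on both the control and cordyceps arrays. Of these 9 genes 8 were below 0 with cordyceps, the exception being ZNF14 at 0.30, and the median was −0.60. The 108 genes outside these runs had a median of 0.04, with 49 below 0. The 3 runs were chosen by these cordyceps values, so the contrasts in median and in share with other genes follow from that choice. Past 1.5-fold lower with cordyceps were 7 of the 13 genes of the runs that could be compared (53.8%), and 6 of 112 elsewhere (5.36%), beside 12.2% of all genes. Of these 7 genes, ZNF107 and ZNF117 had no detected signal on the cordyceps array, and a gene compared in that way can only come out lower. The 5 measured on both arrays were ZNF254, ZNF85, ZNF92, ZNF101 and ZNF273. Outside the corner 5 of 9 were past 1.5-fold, and the median of the 7 measured there was −0.52. With cordycepin 10 of 12 measured genes of the runs were above 0, at a median of 0.26, while the other 106 had a median of −0.13. Outside the corner 6 of 8 were above 0, at a median of 0.13. ZNF117 of the chromosome 7 run, which is not among the 12, was at least 2.55-fold lower with cordycepin. With each array scaled by its median, the medians of the runs were 0.00 with cordycepin and −0.33 with cordyceps, beside −0.33 and 0.17 for all genes.

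ZNF254 had the most probes of any of the 145 genes, 5, all detected on every array. Its brightest probe, in the corner, read 1479.7 in control cells, 1594.7 with cordycepin and 926.2 with cordyceps, a log2 ratio of −0.68 with cordyceps. The other probes, all outside the corner, gave −0.79, −0.72, −0.55 and −0.31. All 5 probes of ZNF254 were thus below control with cordyceps, while with cordycepin 3 were above (0.44, 0.32 and 0.13) and the others at −0.03 and −0.56. ZNF92, on chromosome 7, read 331.5, 300 and 187.9, a ratio of 0.07 with cordycepin and −0.82 with cordyceps. ZNF85 read 397.9, 415.1 and 246.5, and ZNF253 690.8, 787.1 and 514.6. In ZNF85 and ZNF253 as in ZNF92 the cordyceps array was the lowest of the 3.

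ZNF genes numbered 300 and above that lie inside the 3 runs were not used to choose them. Of 5 measured on both arrays, 4 were below 0 with cordyceps. These were ZNF728 (−0.80), ZNF626 (−0.71), ZNF729 (−0.57) and ZNF726 (−0.56), and ZNF675 was at 0.24. Counting a bound for ZNF492, 3 of 6 (50%) were past 1.5-fold lower, against 7.17% of such genes elsewhere. The genes of the runs are close paralogs. The probe sequences were not used here, and how far a probe takes up the transcript of a neighbour was not tested.

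**Figure D4:**
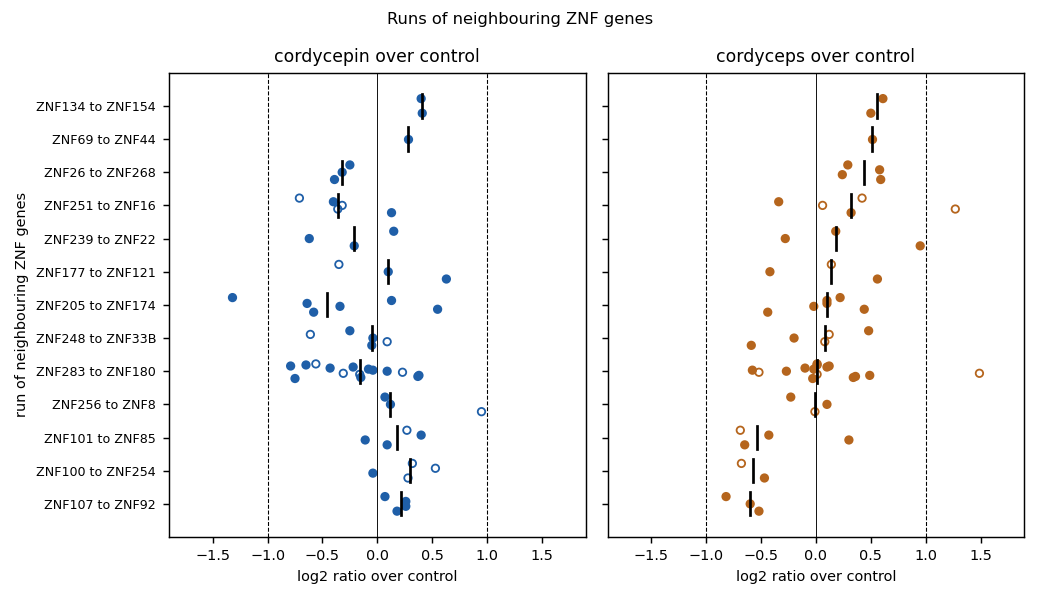
Log2 ratio over control of the genes measured on both arrays in each of the 13 runs, ordered by their median with cordyceps, for cordycepin (left) and cordyceps (right); bars mark the run's median, open points lie in the corner and dashed lines mark 2-fold. The lowest 3 runs have medians from −0.60 to −0.54 with cordyceps and from 0.18 to 0.30 with cordycepin.

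The promoters of these runs were also alike. Of 120 pairs among the 16 promoters available from the runs, 66 were at least 70% identical and the median was 79.4%, while 2 of 5886 pairs among the other genes reached 70% and their median was 58.8%. A CCAAT box was found in 15 of the 16 (93.8%), as in the ZNF254 and ZNF92 stretches shown above, and the ZNF143 site letters in none. These runs were chosen for the lowest medians with cordyceps, so no other run could have a median as low. The run from ZNF283 to ZNF180 on chromosome 19, with 19 genes, had medians of −0.16 with cordycepin and 0.01 with cordyceps. The run from ZNF26 to ZNF268 on chromosome 12 had −0.32 and 0.43, and that from ZNF205 to ZNF174 on chromosome 16 had −0.46 and 0.10.

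The genes with the ZNF143 site letters before their start were, at the median, slightly lower than the others with cordycepin. The median log2 ratio was −0.25 over 17 measured genes with these letters and −0.04 over 86 without, and with cordyceps it was 0.10 and −0.02. Outside the corner the medians were −0.23 and −0.04 with cordycepin and 0.11 and −0.02 with cordyceps. The group without the letters includes all 16 promoters of the 3 runs above, whose genes had a median of 0.26 with cordycepin. Many genes with the letters lie in the run from ZNF283 to ZNF180, which had a median of −0.16. The letters and the runs were not separated here. ZNF112, ZNF283 and ZNF189, whose stretches are shown above, were at −0.79, −0.75 and −0.73 with cordycepin and between −0.03 and 0.12 with cordyceps. None of the genes with the letters passed 2-fold, and none of the 4 genes at least 2-fold lower with cordycepin held them. ZNF230, at 0.38, was the highest of the group with cordycepin.

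The ZNF genes numbered 300 and above gave 8 higher and 8 lower of 248 with cordycepin (3.23% each). Their median log2 ratio was −0.05. With cordyceps they gave 6 higher (2.47%) and 3 lower (1.23%) of 243, at a median of −0.08. Over all genes 5.33% were higher and 3.51% lower with cordycepin, and 3.80% and 3.10% with cordyceps. No ZBTB gene of 35 passed 2-fold with cordycepin and none of 34 with cordyceps. Of 16 ZSCAN genes 1 was at least 2-fold lower with cordycepin, and none of 15 passed 2-fold with cordyceps. Of 7 ZKSCAN genes 1 was at least 2-fold lower in each comparison, and no ZFP gene of 11 passed 2-fold in either. Each ZKSCAN call was a bound, from a gene not detected on the treated array. The lowest measured ZKSCAN ratios were −0.68 with cordycepin and −0.20 with cordyceps. Medians of these related families lay between −0.17 and −0.03 with cordycepin and between −0.10 and 0.21 with cordyceps, around those of the 145 genes.

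All 17 genes of a list of KRAB co-repressors and their chromatin partners were detected on every array. TRIM28, the scaffold that KRAB domains bind, read 5457.7 in control cells, 3701.2 with cordycepin and 5216.8 with cordyceps, with log2 ratios of −0.35 and −0.07. SETDB1, the histone H3 lysine 9 methyltransferase it recruits, was at −0.19 and −0.12 by its brightest probe. The other SETDB1 probes gave 0.15 and 0.19 with cordycepin and −0.56 and −0.47 with cordyceps. With cordycepin, DNMT1, which keeps DNA methylation through replication, was at least 2-fold higher (278.4 to 566.6, log2 ratio 1.24), and MPHOSPH8, the chromodomain subunit of the HUSH silencing complex, was at least 2-fold lower (724.8 to 284.3, −1.14). With cordyceps, UHRF1, which guides DNMT1 to newly copied DNA, was at least 2-fold lower (386.4 to 178.9, −1.11). The second UHRF1 probe gave −0.90, short of 2-fold. With cordycepin 1 of the 17 was thus higher (5.88%, all genes 5.33%) and 1 lower (5.88%, all genes 3.51%). With cordyceps 1 was lower (5.88%, all genes 3.10%) and none higher (all genes 3.80%). The list's median was −0.10 with cordycepin and −0.16 with cordyceps, near the −0.06 and −0.10 of all genes. TASOR, another HUSH subunit, was at 0.77 with cordyceps by its brightest probe, which lies in the corner. Its second probe, outside the corner, read 331.8 in control cells and 159.7 with cordyceps (−1.06), more than 2-fold lower. The TRIM28 probe also lies in the corner. The calls near 2-fold depended on the processing: DNMT1 was at 0.97 and UHRF1 at −0.84 with each array scaled by its median, and UHRF1 was at −0.83 and MPHOSPH8 at −0.99 with normexp background correction.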

How the data were processed

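RNA of each condition was labelled with Cy3 and hybridized to 1 array. The authors deposited Agilent Feature Extraction 11.5.1.1 scanner files (design on hg19), whose processed signal is a background-subtracted intensity per spot, and a value table that holds the same intensity averaged per probe (equal within a relative 1e-04 for 58125 of 58201 probes of the control array). The study's methods name 2 dyes, whereas the deposited files hold the intensity of 1 channel.

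Control spots and flagged outlier spots (63 to 106 an array) were left out and spots of a probe were averaged. The log2 of the deposited intensity minus each array's 75th percentile (260.1, 224.3 and 260.2) was compared between arrays. Of 25277 probes with an NM accession 24751 were named through a RefSeq gene table (GRCh38.p14, used for names and gene order). The brightest probe over the 3 arrays stood for a gene. A gene detected on 1 array of a pair got a bound. It was taken against its own signal or the lowest detected signal on the other array, whichever was higher. Where the detected signal did not exceed this, no fold was given, and the gene still counted among those compared. No spot was saturated. The arrays' number, 1 a condition, limits the precision, and no p-value was computed.

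By rule, the genes named were those at least 2-fold changed, at most 12 a direction, and those whose probes opposed at 1.5-fold. The rule also took the role list and the co-repressor list. Other ZNF genes, such as those near a threshold, those of the runs and those with printed promoter stretches, were named after their values were seen. The genes and lists were chosen with earlier results of these data known. Promoters were the first RefSeq entry of a symbol. Protein features were not analysed here. Python 3.11.15, pandas 2.3.3 and, for normexp (offset 50), limma 3.58.1 were used. Quantile scaling was done in Python. Scripts were tested on simulated data.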

Additional observations from a re-analysis of the deposited data

How the results depend on the processing

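Alternatives covered the scaling, background correction, detection filter, outlier spots, the deposited value table, the probe of a gene, the threshold and the corner. No paired analysis was possible because each condition had 1 array, and for the same reason no replicate could be left out. None of the values with a call changed sign. Scaling by the array median moved the median of all genes to −0.33 with cordycepin and 0.17 with cordyceps, and that of the 145 genes to −0.34 and 0.28. Under it the 3 runs, whose alternatives were added after the data were seen, had medians of 0.00 and −0.33. This scaling shifts every gene of an array alike, so it cannot change their distance from all genes. With cordycepin, the count of genes at least 2-fold higher was 0 in the report, 2 with the percentile taken over probes detected on all arrays, 3 with no detection filter or with a positive and significant signal, 5 at 1.5-fold and 1 with the corner left out. The gene gained with the corner left out was ZNF25. The count lower was 4, and became 8 with median scaling, 6 with quantile normalization, with no scaling, with no detection filter or with a positive and significant signal, 3 with detection required on both arrays, 1 with normexp (ZNF207), 2 with the median over probes (ZNF117 and ZNF75D), 19 at 1.5-fold and 0 at 3-fold. With cordyceps, the count higher was 2, and became 6 with median scaling or with the percentile over detected probes, 5 with no detection filter or with a positive and significant signal, 1 with the median over probes, 11 at 1.5-fold, 0 at 3-fold and 4 with the corner left out. The count lower was 0, and became 4 with no detection filter or with a positive and significant signal and 13 at 1.5-fold. The genes gained without a detection filter include genes not well above background on any array, such as ZNF208 and ZNF140. The counts over all genes moved too. With cordycepin they were 738 higher and 487 lower in the report, and 459 and 1037 with median scaling. They were 503 and 876 with no scaling, 308 and 239 with normexp, and 1355 and 844 with no detection filter. With cordyceps they were 518 higher and 422 lower in the report, and 788 and 170 with median scaling. They were 746 and 880 with no detection filter and 374 and 244 with the corner left out. ZNF207 ran from −1.36 to −0.69, ZNF174 from −1.58 to −0.85, ZNF75D from −1.35 to −0.68 and ZNF117 from −1.63 to −0.39 with cordycepin. With cordyceps ZNF223 ran from 1.09 to 1.75 and ZNF34 from 0.13 to 1.54.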
